A study of Mus musculus with 6 samples.

Results

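The dermal matrix and fibroblast genes are 36 genes chosen by symbol, with earlier results of these data known, out of 41214 Ensembl genes counted in each library. They hold 5 fibrillar collagens, 3 chains of collagen VI, 2 fibril-associated collagens, 6 genes of the elastic fibre, 4 small leucine-rich proteoglycans, 6 matricellular or adhesive glycoproteins, 2 small matrix proteins, 3 cross-linking enzymes and 5 receptors or cell markers. Each of the 36 symbols matched 1 identifier in the count files, and 34 had enough counts to be tested. Fmod and S100b did not.

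Messenger RNA was sequenced from epidermis of 4-day-old (postnatal day 4) C57BL/6 mice, whose skin had been treated with trypsin, in 3 wild-type (wt) and 3 ARPC4 knockout (ko) libraries. ARPC4 is a core subunit of Arp2/3, the assembly that starts new actin branches on existing filaments. The titles of ko samples carry "hom", which the labels do not spell out. The labels name no Cre driver, allele or targeted cell type, so whether fibroblasts also lacked the gene is not given. Replicates 1 and 2 of each group carry a date in their titles and replicate 3 of each group does not. They are called the dated and the undated libraries here, and what the date stands for is not stated.

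The dermis is a connective tissue built by fibroblasts, which secrete collagens that assemble into fibrils outside the cell. Proteoglycans and other collagen-bound proteins set the width and spacing of the fibrils, and lysyl oxidases cross-link them. Elastic fibres form on fibrillin microfibrils and give skin its recoil. The epidermis is a sheet of keratinocytes above a basement membrane and holds no fibroblasts. Keratinocytes nevertheless make some matrix proteins themselves, among them thrombospondin, tenascin C, fibronectin and laminins.

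The libraries held 17561294 to 22659511 counts in genes each. Levels below are CPM, the counts of a gene scaled to a fixed library size after correction for composition (TMM). Keratinocyte markers, 17 of 18 listed genes in the files, summed to between 101083 and 149033 CPM in wt and between 106233 and 175734 CPM among ko, so markers of the labelled tissue were abundant in every library. The 10 fibroblast markers among the members summed to between 202.0 and 460.0 CPM in wt and between 966.0 and 1985 CPM among ko, with none at 0. Postn held 59.4% of these sums. Without it the other 9 summed to 90.3, 162.0 and 189.0 CPM for wt replicates 1 to 3 and to 615.0, 789.0 and 229.0 CPM for ko, so that the undated ko library was the lowest of the ko libraries and close to wt. In bulk tissue, more cells of a type and more RNA per cell cannot be told apart. Arpc4 was counted at 72.5, 82.5 and 73.1 CPM among wt, against 67.5, 65.6 and 64.5 CPM for ko replicates 1 to 3, and the deleted part of the gene is not given, so its level does not check the deletion.

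The upstream sequences of 4 members are shown because these genes carry the contrasting patterns described below. Col1a2 and Col3a1 were highest in the dated ko libraries, and Postn and Tnc in the undated one. Each window is the 250 bases before the transcription start in the RefSeq table (GRCm38.p6, the assembly also called mm10), read 5′ to 3′ on the strand of the gene. Capitals mark the letters of a TATA box (TATAAA) or of a CCAAT box (CCAAT), wherever in the window they stood. The windows are chr6:4505368-4505617 (plus strand) for Col1a2, chr1:45311288-45311537 (plus strand) for Col3a1, chr3:54360857-54361106 (plus strand) for Postn and chr4:64046937-64047186 (minus strand) for Tnc.
Col1a2: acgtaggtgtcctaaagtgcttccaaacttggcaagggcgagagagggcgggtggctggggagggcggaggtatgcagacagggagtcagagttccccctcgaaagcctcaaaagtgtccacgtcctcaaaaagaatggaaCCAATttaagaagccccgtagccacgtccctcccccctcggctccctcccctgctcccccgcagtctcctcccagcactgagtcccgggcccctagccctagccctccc
Col3a1: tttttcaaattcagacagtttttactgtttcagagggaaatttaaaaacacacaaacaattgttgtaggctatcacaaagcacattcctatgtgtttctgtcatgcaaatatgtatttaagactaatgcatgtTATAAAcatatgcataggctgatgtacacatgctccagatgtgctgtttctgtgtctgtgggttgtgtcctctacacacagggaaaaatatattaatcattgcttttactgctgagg
Postn: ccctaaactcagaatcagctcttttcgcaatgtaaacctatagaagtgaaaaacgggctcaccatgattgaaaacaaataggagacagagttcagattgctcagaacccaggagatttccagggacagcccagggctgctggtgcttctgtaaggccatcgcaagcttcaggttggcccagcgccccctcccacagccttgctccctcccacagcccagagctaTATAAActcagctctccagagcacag
Tnc: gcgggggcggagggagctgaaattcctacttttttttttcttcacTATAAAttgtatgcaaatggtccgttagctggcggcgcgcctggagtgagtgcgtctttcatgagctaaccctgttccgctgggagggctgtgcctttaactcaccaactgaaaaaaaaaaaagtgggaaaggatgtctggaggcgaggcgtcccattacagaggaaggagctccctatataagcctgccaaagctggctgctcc
Col1a2 held CCAAT 109 bases before its start. TATAAA began 117 bases before the start in Col3a1, 26 bases in Postn and 205 bases in Tnc. The same TATAAA of Tnc lay 126 bases before a second listed start. Whether any of these letters act as a TATA or CCAAT box was not tested. Windows were found for 20 of the 36 members, 24 windows in all. Motifs were searched on both strands, and matches of different motifs were allowed to overlap. TATAAA or its reverse TTTATA stood in 6 of the 24 member windows against 12.4% of all 32851 windows in the table. These windows belong to 5 of the 20 genes, since 2 overlapping windows of Tnc hold the same site. Transcribed bases listed with the window matched a GENCODE transcript for 21 of the 24 windows. The window of Thbs2, which held TTTATA and CCAAT, was not among the 21. CCAAT or ATTGG stood in 5 of 24 against 33.8%, and the AP-1 letters TGANTCA in 1, that of Col6a1, against 6.75%. These are matches of letters only.

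Most of these genes lay higher in ko than in wt, and none of them passed the test over all genes. Log2 fold changes of ko over wt were above 0 for 33 of the 34 members tested, with a median of 1.87, beside 0.02 over all 13704 genes tested. By edgeR's quasi-likelihood test with Benjamini-Hochberg adjustment 0 of 34 passed in either direction, where 0.219% of all genes passed as higher and 0.0% as lower. At an unadjusted p under 0.05 there were 24 of 34 on the higher side, against 7.98% of all genes, and 0 on the lower side, against 5.25%. The 3 ko libraries all exceeded the 3 wt libraries in 20 of the 34, against 11.3% of all genes, and all ko libraries lay below all wt ones in 0, against 8.03%. DESeq2 called 16 of the 36 members higher and 0 lower, where it called 1.93 and 0.982% of all genes, and limma-voom called 0, where it called 0.0% of all genes. The DESeq2 shares are over 22311 genes, with low-count genes included, and not over the 13704 tested with edgeR. At an unadjusted p under 0.05 limma-voom had 24 members on the higher side, against 7.74% of all genes. Endothelial markers lay higher in the same libraries, with sums of 7.66, 8.19 and 8.48 CPM among wt and 36.4, 36.8 and 23.4 CPM among ko, and their part in these differences was not tested.

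**Figure D1:**
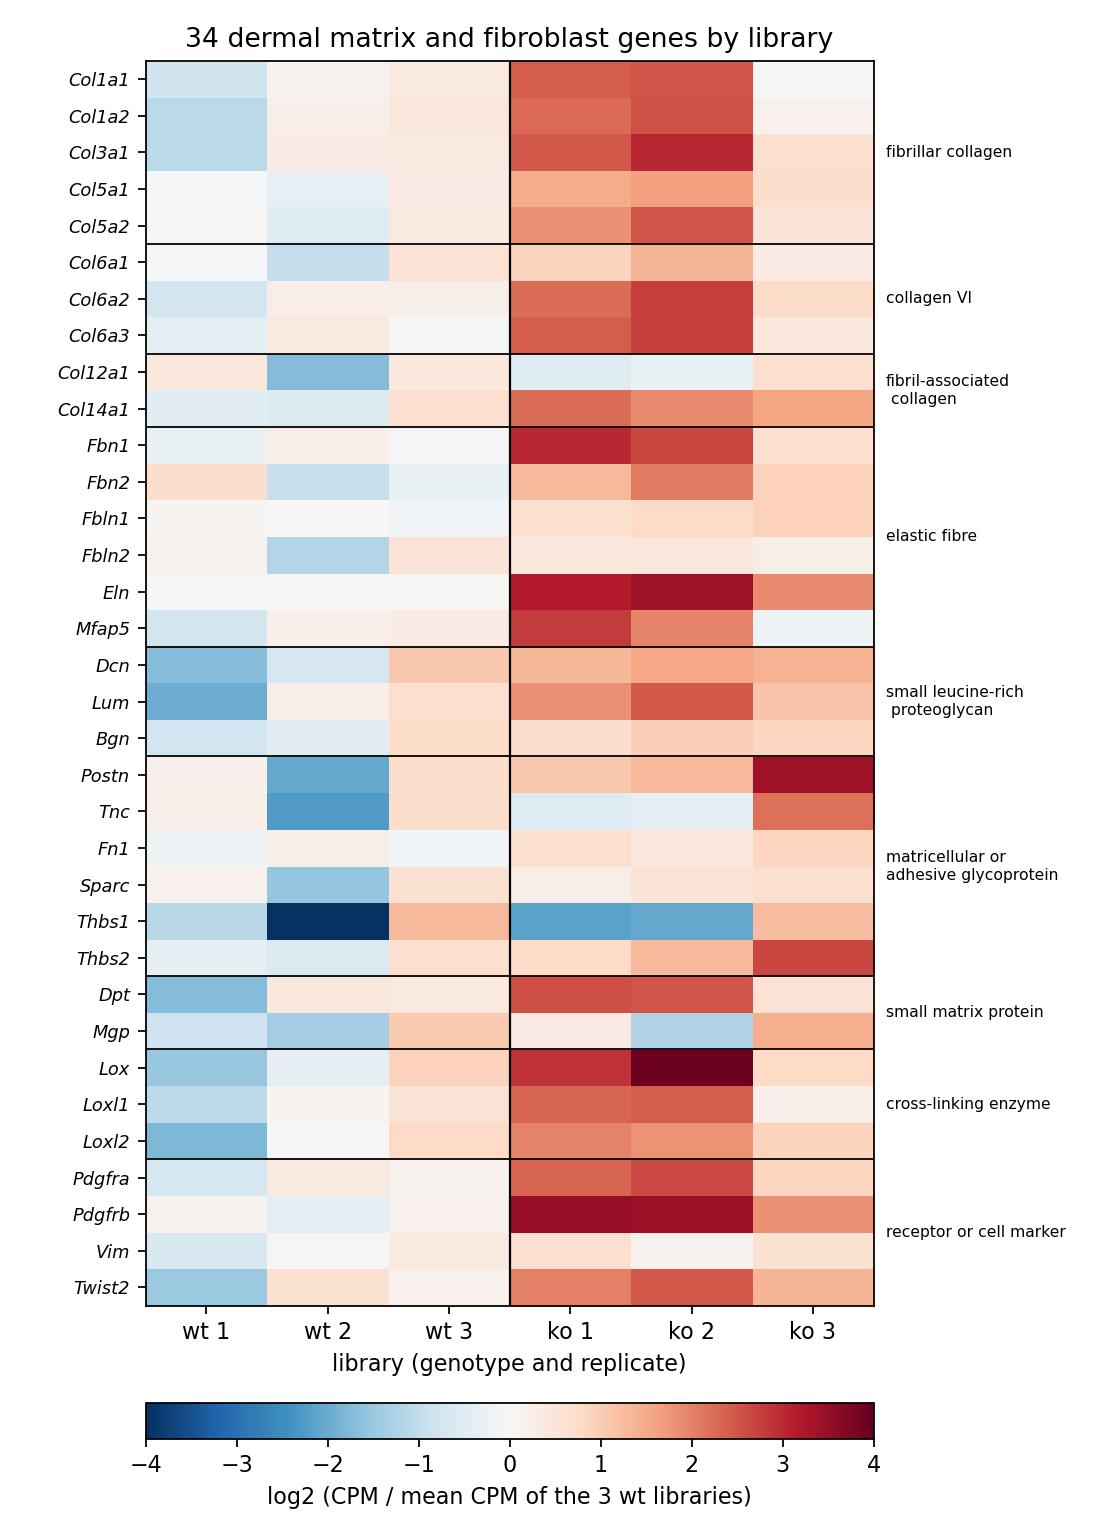
Levels of the 34 members tested in each of the 6 libraries (columns), as log2 of the CPM over the mean CPM of the 3 wt libraries, with genes (rows) grouped by role. Most collagens, Fbn1, Eln, the lysyl oxidases and the receptors are high in ko replicates 1 and 2 and less so in ko replicate 3, while Postn, Tnc and Thbs2 are highest in ko replicate 3.

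The fibrillar collagens, the rope-like load-bearing fibrils of the dermis, were several-fold higher in the 2 dated ko libraries and near the wt level in the undated one. Col1a1 (ENSMUSG00000001506, chromosome 11, 94936224 to 94953042, plus strand, mm10), the α1 chain of type I collagen, lay at 14.1, 27.1 and 32.4 CPM for wt replicates 1 to 3, against 132.0, 141.0 and 24.4 CPM for ko replicates 1 to 3. The groups overlapped, since the undated ko library lay below both wt replicates 2 and 3. Its log2 fold change was 2.01 (SE 0.65, adjusted p = 0.256 by edgeR). Col1a2, the other chain of type I collagen, followed the same order, at 13.1, 31.6 and 37.7 CPM among wt, against 133.0, 162.0 and 30.8 CPM among ko (1.98, SE 0.65, adjusted p = 0.262).

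Col3a1 (ENSMUSG00000026043, chromosome 1, 45311538 to 45349706, plus strand), the chain of type III collagen that is abundant in young skin, lay at 21.2, 55.7 and 58.4 CPM over the wt libraries against 248.0, 368.0 and 70.7 CPM among ko. Here the 3 ko libraries all exceeded the 3 wt libraries, the undated one only narrowly, and the log2 fold change was 2.34 (SE 0.65, adjusted p = 0.186). Type V collagen sits inside type I fibrils and limits their width. Col5a1 lay at 8.94, 7.45 and 11.9 CPM among wt, against 26.1, 29.2 and 15.5 CPM among ko (1.32, SE 0.29, adjusted p = 0.121), and its partner Col5a2 at 6.43, 4.36 and 7.98 CPM among wt, against 22.4, 35.6 and 9.02 CPM among ko (1.83, SE 0.5, adjusted p = 0.182). Both kept the groups apart. DESeq2 called all 5 fibrillar collagens, where it called 1.93% of all genes higher, and edgeR and limma-voom called 0 of the 5.

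The 2 chains of type I collagen kept a similar ratio from library to library. Per kilobase of exon, Col1a1 stood at 1.5 to 2.04 times Col1a2, a spread of 1.36-fold over the 6 libraries while the level of Col1a1 itself ranged from 14.1 to 141.0 CPM. The ratio of Col3a1 to Col1a1 per kilobase ran from 1.0 in wt replicate 1 to 1.94 in ko replicate 3, a spread of 1.93-fold.

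Collagen VI forms beaded filaments around cells. Col6a2 lay at 2.82, 5.64 and 5.49 CPM among wt, against 21.7, 31.9 and 7.81 CPM among ko (log2 fold change 2.14, SE 0.53, adjusted p = 0.16), and Col6a3 at 4.45, 7.61 and 5.49 CPM among wt, against 31.5, 38.9 and 7.92 CPM among ko (2.16, SE 0.56, adjusted p = 0.173). In both the 3 ko libraries all exceeded the 3 wt libraries. Col6a1 did not separate the groups, at 13.4, 7.13 and 20.8 CPM among wt, against 25.6, 35.5 and 17.3 CPM among ko (0.92, SE 0.42, adjusted p = 0.415). Per kilobase the ratio of Col6a3 to Col6a2 varied 1.58-fold over the libraries, whereas that of Col6a1 to Col6a2 varied 4.27-fold, from 2.12 in ko replicate 2 to 9.03 in wt replicate 1.

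The fibril-associated collagens differed from each other. Col14a1, which binds the surface of mature fibrils, lay at 3.39, 3.03 and 7.16 CPM among wt, against 21.2, 16.8 and 13.6 CPM among ko, with the groups apart (log2 fold change 1.92, SE 0.36, adjusted p = 0.0946, DESeq2 adjusted p = 7.51e-05). Col12a1, the closely related collagen XII, lay at 48.1, 10.8 and 48.6 CPM among wt, against 25.8, 29.6 and 56.8 CPM among ko (0.06, SE 0.57, adjusted p = 0.983). Its groups overlapped throughout, and its lowest library was wt replicate 2.

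Elastin had the smallest p of the members. Eln (ENSMUSG00000029675, chromosome 5, 134702593 to 134747323, minus strand), the core protein of the elastic fibre, lay at 1.72, 1.76 and 1.81 CPM over the wt libraries against 15.8, 18.6 and 6.56 CPM among ko. The 3 wt libraries differed by only 1.06-fold, and the lowest ko library stood well above them. The log2 fold change was 2.95 (SE 0.42, 7.71-fold, adjusted p = 0.0642 by edgeR, DESeq2 adjusted p = 1.99e-09), and Eln was the 1 member called by edgeR when no filter on low counts was used, where 0.246% of all genes were called higher and 0.00896% lower.

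Fbln1 (ENSMUSG00000006369, chromosome 15, 85205949 to 85286535, plus strand), fibulin 1, a glycoprotein of elastic fibres and basement membranes, showed an even difference, at 37.0, 34.3 and 30.9 CPM among wt, against 53.5, 59.0 and 64.3 CPM among ko. Each group spread by 1.2-fold, the groups stood apart, and the undated ko library was the highest (0.79, SE 0.12, adjusted p = 0.0688). Fibrillin 1 (Fbn1), the backbone of the microfibril, lay at 2.47, 3.56 and 2.81 CPM among wt, against 23.6, 18.7 and 4.67 CPM among ko (2.41, SE 0.57, adjusted p = 0.147). Fbn2, on chromosome 18, the fibrillin of developing tissue, lay at 1.12 to 3.43 CPM among wt, against 3.99 to 8.93 CPM among ko (1.49, SE 0.48, adjusted p = 0.254). Both fibrillins kept the groups apart. Fbn1 shares 2442 bases of exon with Gm9913 on the opposite strand, and the strand setting of the counting is not given, so reads of the pair may not be told apart.

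The other elastic fibre genes separated the groups less well. Mfap5, a microfibril glycoprotein, was counted in 5 to 51 reads, at 0.22 to 0.453 CPM among wt, against 2.53, 1.42 and 0.315 CPM among ko (1.96, SE 0.75, adjusted p = 0.331). Fbln2, a fibulin that binds elastin and fibrillin, lay at 7.31, 2.93 and 9.48 CPM among wt, against 8.75, 8.93 and 7.76 CPM among ko (0.36, SE 0.39, adjusted p = 0.791), so its highest library was a wt one.

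**Figure D2:**
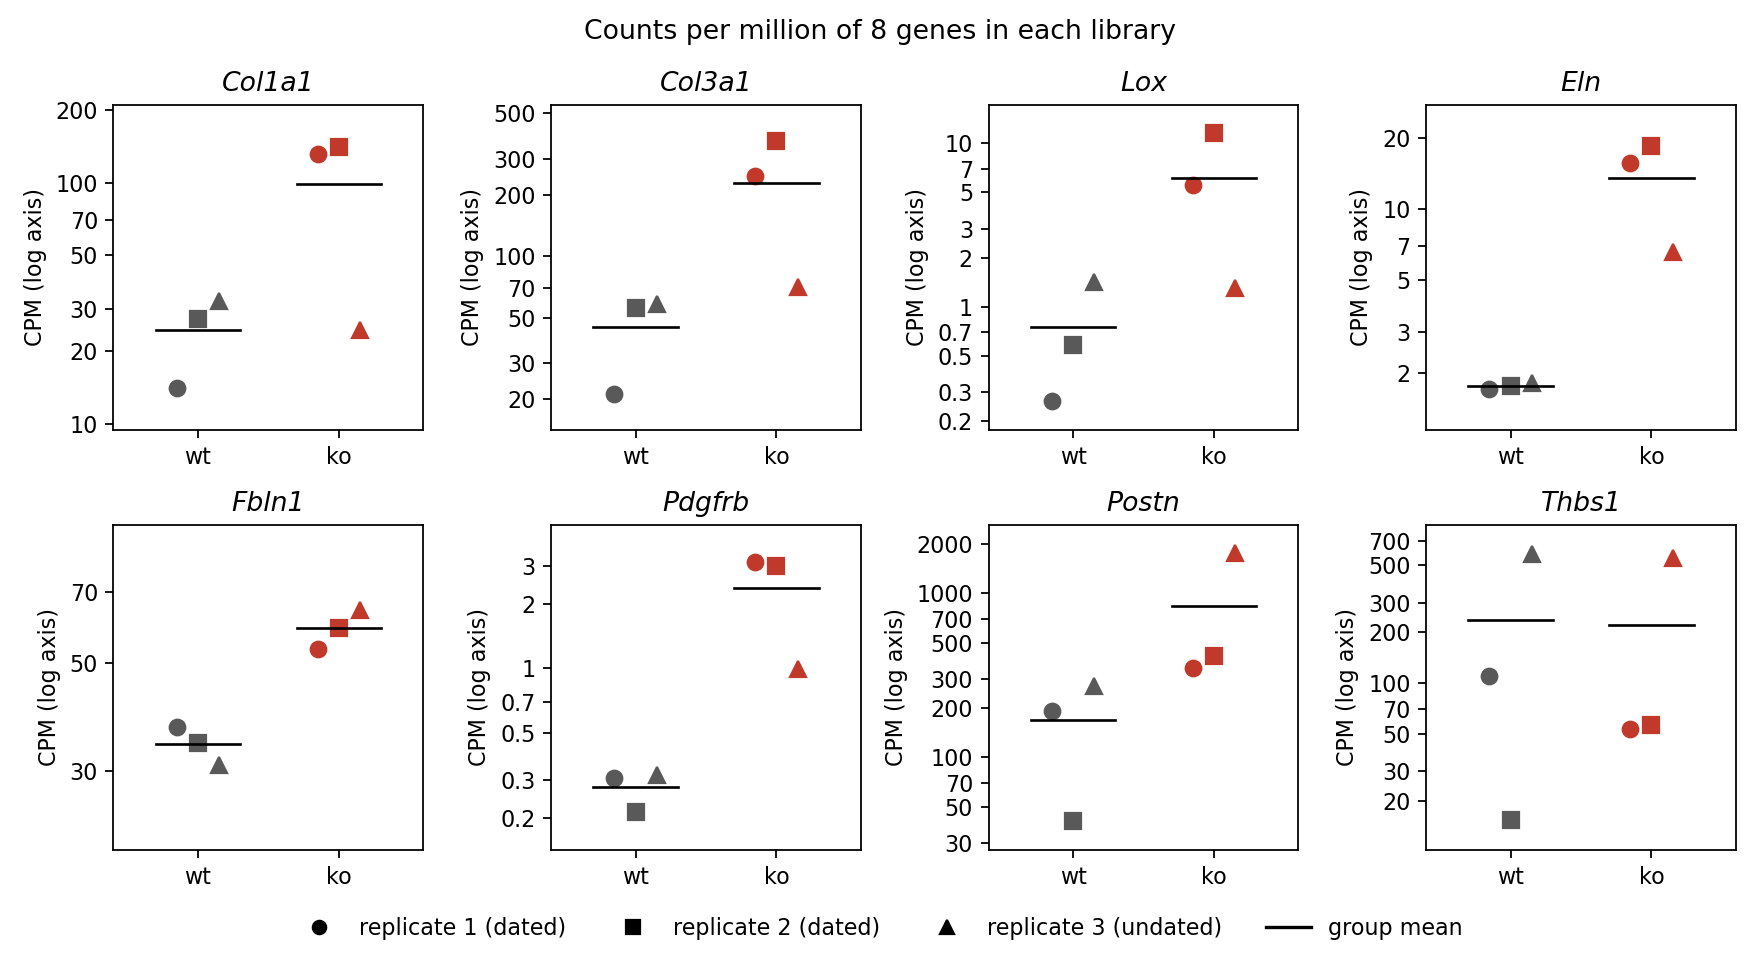
CPM (log axis) of 8 members in each library, with wt in grey, ko in red, a symbol per replicate and a line at the group mean of 3 libraries. Eln, Fbln1, Pdgfrb, Col3a1 and Postn keep the groups apart, whereas for Col1a1, Lox and Thbs1 the undated ko library lies within the wt range.

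The small leucine-rich proteoglycans bind collagen and space its fibrils. Decorin (Dcn, ENSMUSG00000019929, chromosome 10, 97479609 to 97518143, plus strand) lay at 3.39, 6.97 and 23.4 CPM over the wt libraries against 28.2, 32.6 and 29.5 CPM among ko. The ko libraries agreed within 1.16-fold and wt spread 6.89-fold, with the undated wt library close to ko (1.42, SE 0.63, adjusted p = 0.403). Lumican (Lum) lay at 0.572, 2.66 and 3.54 CPM among wt, against 7.95, 12.5 and 4.93 CPM among ko (1.91, SE 0.61, adjusted p = 0.254), and it too kept the groups apart. Biglycan (Bgn) lay at 5.81, 7.18 and 16.6 CPM among wt, against 16.0, 19.6 and 18.1 CPM among ko, where the undated wt library overlapped ko (0.85, SE 0.39, adjusted p = 0.418). Bgn lies on the X chromosome, and Xist was at 0.22, 0.425 and 579.0 CPM among wt, against 543.0, 0.177 and 508.0 CPM among ko, high in both undated libraries and in ko replicate 1. Sex by Xist was thus not balanced over the groups. The part of sex in the level of Bgn was not tested. Fibromodulin (Fmod) had 3 to 10 counts per library in wt and 5 to 13 in ko and was not tested.

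The matricellular and adhesive glycoproteins, which tune the contact of cells with matrix, held 4 of the 5 highest mean levels per kilobase among the members, and several followed another order of libraries. Periostin (Postn, ENSMUSG00000027750, chromosome 3, 54361109 to 54391037, plus strand) lay at 192.0, 40.8 and 271.0 CPM over the wt libraries against 351.0, 417.0 and 1757 CPM among ko. The 3 ko libraries all exceeded the 3 wt libraries and the undated ko library held 5.01 times the CPM of the lowest ko one (2.33, SE 0.87, adjusted p = 0.322). Without ko replicate 3 its log2 fold change was 1.16. Per kilobase of exon it had the highest mean level of the 36 members in ko, 96.7 CPM, against 19.3 CPM in wt, where it ranked 3. Thrombospondin 2 (Thbs2), an inhibitor of vessel growth, shared that order, at 2.51, 2.18 and 4.99 CPM among wt, against 5.62, 7.98 and 20.6 CPM among ko (1.81, SE 0.57, adjusted p = 0.245), again with the groups apart. Its log2 fold change was 1.02 without ko replicate 3.

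Thrombospondin 1 (Thbs1, ENSMUSG00000040152, chromosome 2, 118111876 to 118127133, plus strand) varied far more within the groups than between them. It lay at 110.0, 15.3 and 583.0 CPM over the wt libraries against 53.5, 56.6 and 551.0 CPM among ko, a 38.1-fold range within wt, and both undated libraries were high. Its log2 fold change of -0.1 (SE 1.35, adjusted p = 0.987) was the 1 value below 0 among the members. Tenascin C (Tnc), an anti-adhesive protein of wounds, lay at 85.1, 15.5 and 121.0 CPM among wt, against 51.9, 57.0 and 339.0 CPM among ko (1.01, SE 0.94, adjusted p = 0.746), and only the undated ko library exceeded all 3 wt libraries.

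Fibronectin (Fn1) differed little but evenly, at 36.2, 50.5 and 39.1 CPM among wt, against 65.3, 56.7 and 75.7 CPM among ko, with the groups apart (0.65, SE 0.17, adjusted p = 0.177). Sparc, a collagen-binding protein, lay at 76.7, 23.3 and 104.0 CPM among wt, against 79.3, 99.5 and 107.0 CPM among ko, which overlapped (0.48, SE 0.48, adjusted p = 0.766). Of the 34 members tested, 19 had their lowest level in wt replicate 1, 14 in wt replicate 2 and 1 in wt replicate 3. The share of all genes lowest in each library was not computed. The 14 were Postn, Tnc, Thbs1, Thbs2, Sparc and Col12a1, and also Col5a1, Col5a2, Col6a1, Col14a1, Fbn2, Fbln2, Mgp and Pdgfrb. In wt replicate 2 the 10 basement membrane genes made by keratinocytes summed to 168.0 CPM, against 1473 and 1756 CPM in wt replicates 1 and 3. The sums were 425.0, 522.0 and 1693 CPM for ko replicates 1 to 3. The part of the basement membrane genes in the levels of these 14 members was not tested.

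Among the small matrix proteins, dermatopontin (Dpt), a decorin-binding protein, lay at 0.396, 1.81 and 1.72 CPM among wt, against 7.75, 7.57 and 1.94 CPM among ko (2.15, SE 0.68, adjusted p = 0.249). Its groups stood apart, with the undated ko library just above wt. Matrix Gla protein (Mgp), an inhibitor of calcification, had 4 to 29 counts per library and overlapped fully (0.56, SE 0.79, adjusted p = 0.848).

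The lysyl oxidases, which oxidize lysines of collagen and elastin so that cross-links form, contained the member with the widest gap between its dated and undated ratios, Lox. This enzyme lay at 0.264, 0.585 and 1.41 CPM over the wt libraries against 5.57, 11.5 and 1.31 CPM among ko (3.0, SE 0.88, adjusted p = 0.212). It had 6 to 31 counts per wt library and 25 to 194 per ko library. The dated ko libraries stood above all wt libraries and the undated ko library lay below its wt counterpart. Loxl1, which acts mainly on elastin, lay at 0.308 to 0.907 CPM among wt, against 3.18, 3.43 and 0.734 CPM among ko (1.94, SE 0.65, adjusted p = 0.276), which overlapped in the same way. Loxl2 lay at 0.22, 0.745 and 1.31 CPM among wt, against 3.03, 2.66 and 1.42 CPM among ko (1.64, SE 0.57, adjusted p = 0.291), and the groups stood narrowly apart.

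The platelet-derived growth factor receptors mark fibroblasts (Pdgfra) and, with them, pericytes (Pdgfrb). Pdgfrb lay at 0.308, 0.213 and 0.317 CPM over the wt libraries against 3.13, 3.02 and 0.997 CPM among ko, the largest log2 fold change of the members (3.04, SE 0.57, adjusted p = 0.0946), on 4 to 7 counts per wt library and 19 to 63 per ko library. Pdgfra lay at 0.484, 1.01 and 0.861 CPM among wt, against 3.93, 4.91 and 1.42 CPM among ko (2.12, SE 0.53, adjusted p = 0.163). Twist2, a transcription factor of dermal progenitors, had 2 to 7 counts in wt and 12 to 23 in ko (2.03, SE 0.53, adjusted p = 0.172). All 3 kept the groups apart. Twist2 shares 1477 bases of exon with the antisense gene Gm29100.

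Vimentin (Vim), the intermediate filament protein of mesenchymal cells, is also made by Langerhans cells, melanocytes and endothelium. It lay at 69.9, 109.0 and 138.0 CPM among wt, against 170.0, 118.0 and 162.0 CPM among ko (0.51, SE 0.27, adjusted p = 0.496), and the groups overlapped. S100b, a marker of Schwann cells and melanocytes rather than of fibroblasts, had 2, 0 and 4 counts in wt and 2, 1 and 1 in ko. These counts are close to the limit of detection, and a difference was not detectable at this depth.

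Most members were highest in a dated ko library and a smaller number in the undated one. Of the 34 tested, 17 were highest in ko replicate 2, 7 in ko replicate 1, 8 in ko replicate 3 and 2, Fbln2 and Thbs1, in wt replicate 3. How often any gene was highest in each library was not computed, so these counts have no background. Both dated ko libraries lay above both dated wt libraries in 30 of 34, against 26.6% of all genes, and the median log2 ratio of the mean CPM was 2.49. In the undated pair, 1 library per genotype and so without a test, ko lay above wt in 26 of 34, against 50.0% of all genes, with a median log2 ratio of 0.36. It lay more than 2-fold above in 8, namely Fbn2, Fbln1, Eln, Postn, Tnc, Thbs2, Pdgfrb and Twist2, against 5.11% of all genes.

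The undated ratio was below the dated one in 27 of 34, against 53.1% of all genes. An interaction of genotype with the dated or undated title, chosen after seeing the data and fitted with edgeR, called 0 members and 0.0% of all genes. At an unadjusted p under 0.05 it held 18 of 34 members, against 3.72% of all genes. In the undated libraries 32.4% (wt) and 35.1% (ko) of the reads listed had more than 1 alignment, against 37.7 to 40.9% in the dated ones, and the part of this in the ratios was not tested. Xist was at 579.0 (wt) and 508.0 CPM (ko) in the undated libraries. In the dated ones it was at 0.22 and 0.425 CPM among wt, against 543.0 and 0.177 CPM among ko. Within wt, sex by Xist thus cannot be told apart from the title date, and its part was not tested. The fit takes the lone undated library of each genotype to vary like the others. Among the dated libraries alone edgeR called 14 of 33 members higher and 0 lower, against 1.16 and 0.485% of all genes. These were Col1a1, Col5a1, Col5a2, Col6a2, Col6a3, Col14a1, Fbn1, Eln, Dcn, Bgn, Lox, Loxl1, Pdgfra and Pdgfrb.

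**Figure D3:**
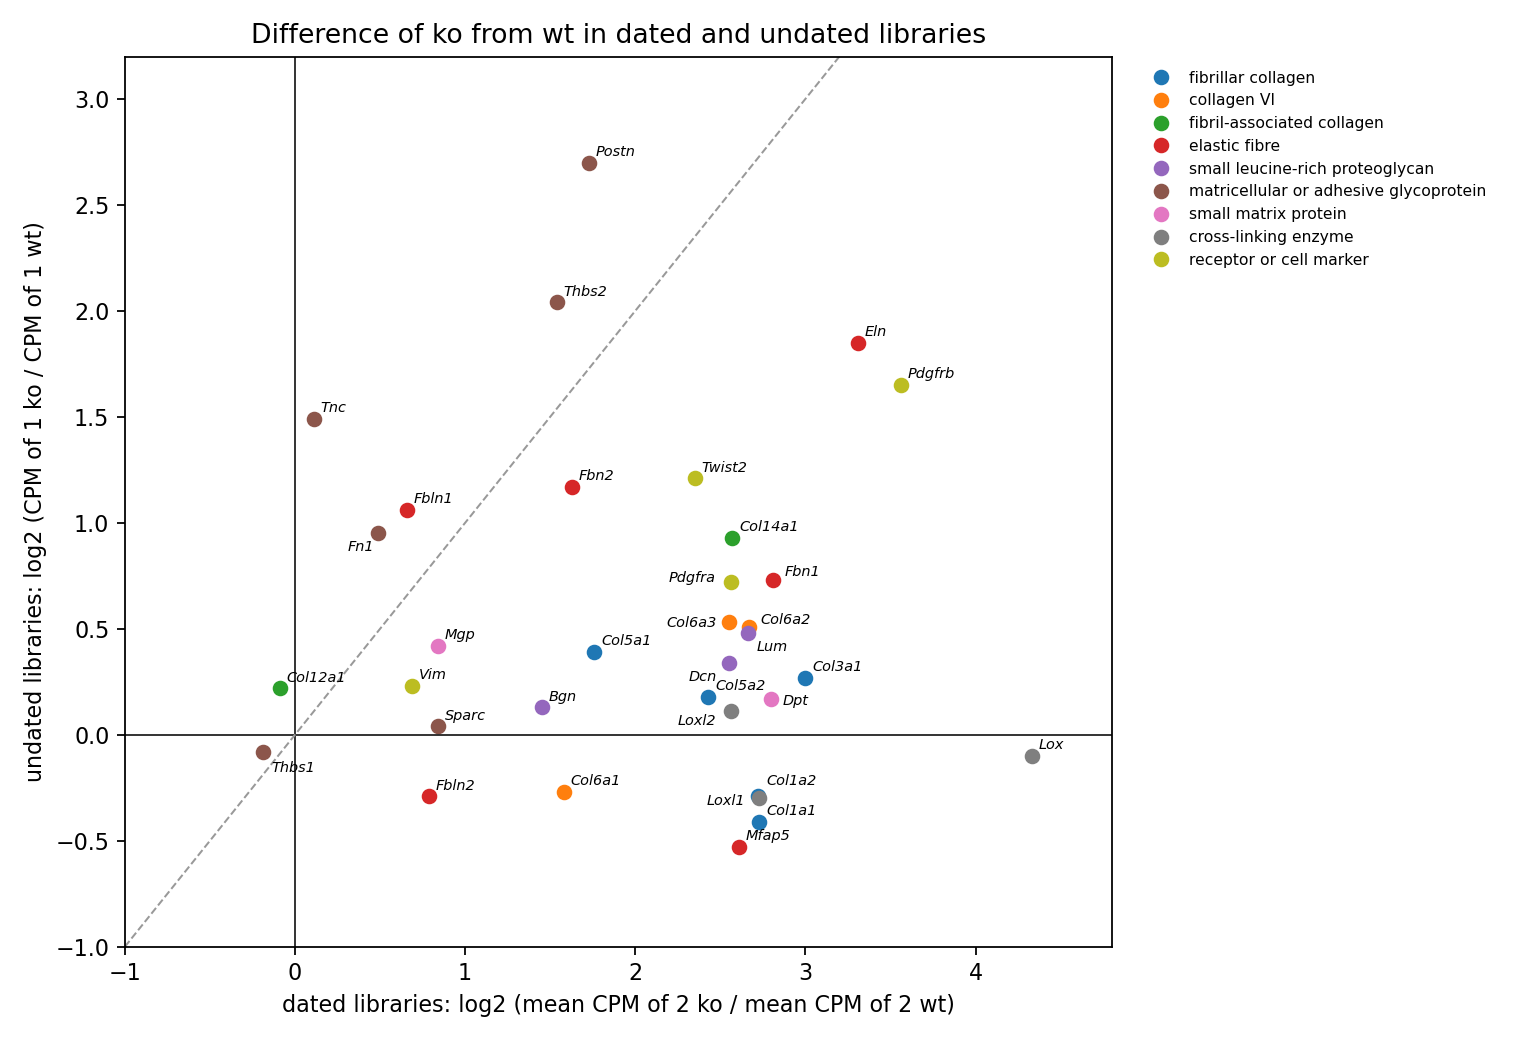
Log2 ratio of ko over wt for the 34 members tested, in the dated libraries (horizontal axis, means of 2 per genotype) and in the undated libraries (vertical axis, 1 per genotype), coloured by role, with the dashed line at equal ratios. Most collagens, lysyl oxidases and Fbn1 lie right of the line with dated ratios of 1.58 to 4.33, whereas Postn, Thbs2, Tnc, Fbln1 and Fn1 lie above it.

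Adding the title date to the model as a covariate, edgeR called 7 of 34 members higher, where 3.2% of all genes were called higher. They were Col14a1, Fbn1, Fbln1, Eln, Thbs2, Pdgfra and Pdgfrb. With replicate number as a block it called Fbln1, Eln, Thbs2 and Pdgfrb, 4 of 34, against 1.85% of all genes, and 0 members lower, against 0.73%. Without ko replicate 3 it called 5, namely Col6a2, Col6a3, Fbn1, Eln and Pdgfrb, against 0.457% of all genes. No member was called when any of the other 5 libraries was left out. Leaving out wt replicate 3 moved the log2 fold change of Dcn to 2.53, of Bgn to 1.45, of Lox to 3.83 and of Loxl2 to 2.32. That of Mfap5 was 1.21 without ko replicate 1, and that of Lox was 2.19 without ko replicate 2.

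Other matrix genes were taken from lists chosen by function, with earlier results of these data known. Of 47 tested among 56 other fibroblast and dermal matrix genes 0 passed with edgeR and the median log2 fold change was 0.94. At an unadjusted p under 0.05 there were 18 on the higher side, against 7.98% of all genes, and 1 on the lower side, against 5.25%, which was Lrig1, a regulator of growth factor receptors (-0.72). In 17 of the 47 all ko values lay above all wt values, against 11.3% of all genes. The smallest p belonged to Cd34 (2.67, SE 0.37, adjusted p = 0.0637), a surface protein of fibroblasts, endothelium and hair follicle stem cells, then to the adhesion protein Svep1 (2.82), the collagen VI chain Col6a6 (adjusted p = 0.0783) and Emilin2 (1.57). Col6a6 had 1, 2 and 2 counts in wt and 52, 55 and 397 counts in ko, which is 2.58, 3.25 and 20.8 CPM, highest in the undated library, unlike Col6a2 and Col6a3.

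The machinery that modifies and secretes collagen, parts of which cells need for other proteins too, stood closer to the median of all genes. Of 24 tested collagen-processing genes 0 passed with edgeR, while an unadjusted p under 0.05 was reached by 2 on the higher side, against 7.98% of all genes, and by 1 on the lower side, against 5.25%. These shares are near the background, and the median log2 fold change was 0.23. The 4 genes with the smallest p are given as values only. The procollagen peptidase Adamts2, which trims the ends of fibrillar collagens, lay at 0.484, 0.479 and 1.04 CPM among wt, against 2.58, 3.37 and 1.99 CPM among ko (1.96, SE 0.39, adjusted p = 0.103 by edgeR, DESeq2 adjusted p = 0.00277). Cathepsin K (Ctsk), a collagen-degrading protease, had a log2 fold change of 1.2 and its groups stood apart. Adamts14, related to Adamts2, had one of -1.32 (adjusted p = 0.274), and Mia3, a factor for collagen export, one of 0.23. P4ha3 had too few counts for the edgeR test, with 2, 0 and 4 in wt and 18, 7 and 98 in ko. Its DESeq2 log2 fold change was 4.54 (DESeq2 adjusted p = 0.00523). Besides P4ha3 and Adamts2 no gene of the list passed by DESeq2, which called 1.93% of all genes higher. The 10 basement membrane genes made by keratinocytes had a median of -0.37 with 0 passing and 0 at an unadjusted p under 0.05.

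Among the marker lists of other cells, also chosen with earlier results of these data known, the endothelial one had the largest median log2 fold change. All 13 tested of the 17 endothelial genes had all ko libraries above all wt libraries, against 11.3% of all genes, and an unadjusted p under 0.05, against 7.98% (median log2 fold change 2.62, 0 called by edgeR). The smallest p belonged to the guidance receptor Robo4 (3.75), the fenestral diaphragm protein Plvap (2.88), VE-cadherin (Cdh5, 3.04) and Pecam1 (1.75), with adjusted p of 0.0669 to 0.0941 by edgeR. By DESeq2 the adjusted p of these genes was 1.1e-05 to 0.00234. Of those tested, only Tek (0.377), Cldn5 (0.075) and Eng (0.111) did not pass by DESeq2, which called 1.93% of all genes higher. None of the 17 was at 0 in all libraries, and Erg and Sox17 stayed under 1 CPM in each. Of the pericyte and smooth muscle list, 8 of 12 tested, 1 gene was called by edgeR, the smooth muscle myosin Myh11, which rose from 0.541 ± 0.128 CPM in wt to 4.01 ± 1.08 CPM among ko (SD, n = 3). Its edgeR log2 fold change was 2.88 with an adjusted p of 0.0459. Rgs5, a pericyte marker, lay at 0.132 to 0.816 CPM among wt, against 8.15, 11.6 and 3.62 CPM among ko. The sum of that list overlapped, at 183.0 to 241.0 CPM among wt, against 204.0 to 311.0 CPM among ko, and Notch3, which keratinocytes also make, held 82.6% of it. Without Notch3 the other 11 summed to 18.1 to 42.5 CPM in wt and 43.5 to 61.1 CPM in ko, which did not overlap.

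No gene of the remaining marker lists was called by edgeR, and the lists did not share 1 direction. Macrophage genes, 8 of 10 tested, summed to 37.2 to 68.1 CPM in wt and 69.9 to 92.2 CPM in ko, and the smallest p was that of the mannose receptor Mrc1 (log2 fold change 2.65, adjusted p = 0.0637). Melanocyte genes summed to 71.1 to 90.4 CPM in wt and 98.4 to 141.0 CPM in ko, and the smallest p was that of Dct (0.52). Adipocyte genes overlapped, at 52.3 to 97.4 and 42.8 to 68.6 CPM. Their 2 genes at an unadjusted p under 0.05 were on the lower side, Pparg (-1.24, with all ko values below all wt values) and Cd36 (-0.74).

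Dermal papilla genes overlapped at 12.5 to 17.9 CPM in wt and 11.5 to 16.8 CPM in ko, with Bmp4 at -0.53 and all its ko values below wt. Erythroid genes overlapped at 8.63 to 9.66 and 6.45 to 9.39 CPM. Skeletal muscle genes, 4 of 11 tested, summed to 6.52 to 11.5 CPM in wt and to 8.05, 48.2 and 5.93 CPM in ko, so that only ko replicate 2 stood out.

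In the Schwann and glial list, at 301.0 to 335.0 CPM in wt and 347.0 to 398.0 CPM in ko, Erbb3 held 83.2% of the sum and had a log2 fold change of 0.07. The other 8 summed to 36 to 48.4 CPM in wt and 61.8 to 87.2 CPM in ko, and the smallest p was that of the myelin gene Mbp (0.65). Of the 5 lymphatic genes only Pdpn, which fibroblasts also make, was tested, and it held 77.9% of a sum of 1.12 to 4.04 CPM in wt and 5.02 to 14.4 CPM in ko. Without Pdpn the other 4 summed to 0.352 to 0.77 and 0.524 to 2.66 CPM, which overlapped. Their part in the levels of the matrix genes was not tested.

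**Figure D4:**
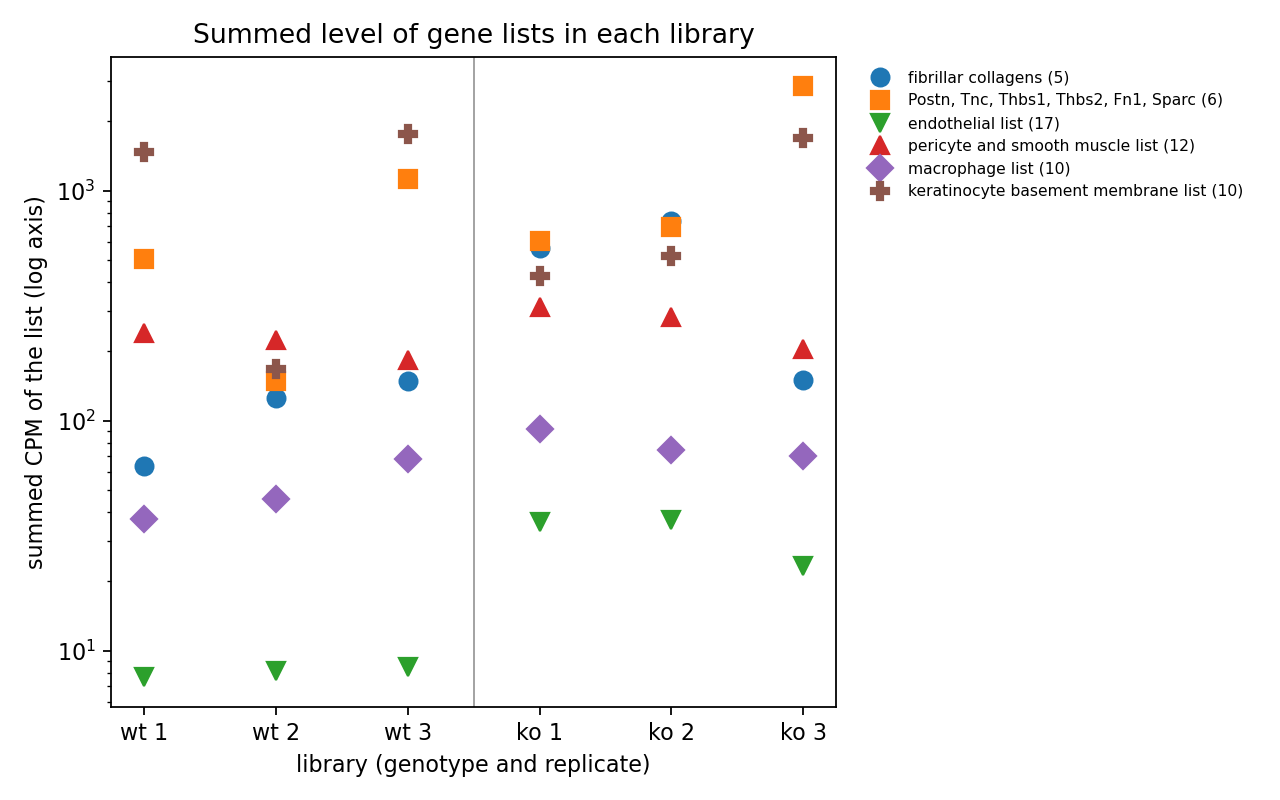
Summed CPM (log axis) of 6 gene lists in each library, with the number of genes in brackets. Fibrillar collagens and endothelial genes are high in ko replicates 1 and 2, and the collagens return to 150.0 CPM in ko replicate 3. The matricellular group and the keratinocyte basement membrane genes are low in wt replicate 2 and high in both undated libraries. The basement membrane genes are also high in wt replicate 1, a dated library, at 1473 CPM.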

How the data were processed

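Messenger RNA libraries (TruSeq Stranded mRNA kit) of trypsin-separated epidermis were sequenced as 51 bp single-end reads, per the labels' protocols. The authors deposited raw counts of reads per Ensembl gene. Per the submitters' processing notes, mm10 was the build and the tools included Bowtie 1.1, TopHat2 2.0.12 and HTSeq. Tool settings, the strand option and the annotation counted: not given in the sources used here. Reads with more than 1 alignment (32.4 to 40.9% of reads listed), ambiguous reads (0.38 to 0.499%) and reads outside genes (0.341 to 0.377%) stayed out of library sizes and tests. Symbols matched 40254 identifiers, and coordinates and exon lengths came from GENCODE M21 on GRCm38.

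Groups follow the genotype label. The labels do not state whether each replicate was its own animal. Xist and Ddx3y differed between replicates of each group, so each held RNA of more than 1 animal. The p-values describe only the spread between the samples given. All replicate pairs differed by more than counting noise (chi-square over its degrees of freedom, 24.4 to 105.0).

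edgeR 4.0.16 (R 4.3.3) was fitted to all 13704 genes kept by filterByExpr, with TMM scaling, robust glmQLFit and glmQLFTest, group as the only factor and an adjusted p threshold of 0.05. Each SE was obtained by dividing the log2 fold change by √F. CPM use the TMM-scaled library size. Alternatives were DESeq2 size factors, other filters, DESeq2 1.42.0, limma-voom (limma 3.58.1), a replicate block, the title date and leaving out libraries. The members, lists and named genes were chosen with earlier results of these data known. All 36 members are named, and from each list the genes past the threshold or otherwise up to 4 with the smallest p. Lrig1, Rgs5, Cd36, Notch3, Erbb3, Pdpn, P4ha3, Tek, Cldn5 and Eng were named after their values were seen, as were the sums without 1 gene. The computation was tested on simulated data.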

Additional observations from a re-analysis of the deposited data

Results flagged for a closer look

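In 7 members both dated ko libraries lay above both dated wt libraries while the undated ko library lay below the undated wt library. The share of all genes with this pattern was not computed. Over all genes, both dated ko libraries exceeded both dated wt libraries in 26.6%, and the undated ko library exceeded the undated wt library in 50.0%. The undated log2 ratios of ko over wt were -0.41 for Col1a1, -0.29 for Col1a2, -0.27 for Col6a1, -0.29 for Fbln2, -0.53 for Mfap5, -0.1 for Lox and -0.3 for Loxl1. The dated ratios of the same genes were 2.73, 2.72, 1.58, 0.79, 2.61, 4.33 and 2.73. The undated ratios of Lox, Loxl1 and Mfap5 rest on few counts, at 25, 14 and 6 in ko against 31, 20 and 10 in wt. The interaction fitted with edgeR had unadjusted p of 0.00217 for Col1a1, 0.00369 for Lox, 0.0078 for Loxl1, 0.0155 for Col1a2, 0.0216 for Col6a1, 0.0282 for Mfap5 and 0.188 for Fbln2, and an adjusted p of 1.0 for each, so the opposite directions were not called as a difference.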

How the results depend on the processing

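The members called higher were 0 in the fit reported, 1 with no filter on low counts, 16 with DESeq2, 4 with the replicate block, 7 with the dated title as a covariate and 14 among the dated libraries alone, and 0 to 5 when 1 library was left out. None was called lower in any of these. Their median log2 fold change was 2.52 among the dated libraries alone and 1.56 to 2.17 when 1 library was left out, against 1.87. Over all genes 30 were called higher and 0 lower, against 55 and 2 with no filter, 18 higher with a filter of 1 CPM in 3 libraries, 431 and 219 with DESeq2, 0 higher with limma-voom, 254 and 100 with the replicate block, 438 and 271 with the title covariate and 160 and 67 among the dated libraries. Leaving out 1 library gave 0 to 64 higher and 0 to 2 lower. Without ko replicate 3 there were 64 higher genes, and without wt replicate 1, 2 or 3 or ko replicate 2 there were 0.

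Directions changed only for members with small or uneven differences. Thbs1 turned from -0.1 to 0.28 with limma-voom and 0.19 with the replicate block, and leaving out 1 library gave -2.14 (without ko replicate 3) to 1.84 (without wt replicate 3). Col12a1 turned to -0.11 among the dated libraries and ranged from -0.41 without ko replicate 3 to 0.35 without wt replicate 3. Over the same omissions Tnc ranged from -0.47 to 1.59 and Mgp from -0.26 to 1.62. The cause was not tested. Deviations from the group mean correlated at -0.186, 0.469 and 0.67 between same-numbered libraries of the 2 groups, the last for the undated pair. Between libraries of different number they correlated at -0.689 to 0.509. These values do not settle whether the numbers pair the samples, and the block rests on numbers alone. Depth limits Fmod, S100b, Mgp, Mfap5, Twist2 and the wt levels of Pdgfrb, Pdgfra, Dpt and the lysyl oxidases. Counts in wt replicates 1 to 3 were 6, 11 and 31 for Lox, 7, 13 and 20 for Loxl1 and 5, 14 and 29 for Loxl2. They were 9, 34 and 38 for Dpt and 11, 19 and 19 for Pdgfra.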
